A study of Mus musculus with 16 samples.

Results

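The antiviral interferon-stimulated genes described here are 40 genes of the classical antiviral response, taken by name from the count table of T cells of OT-I mice. The interferon regulatory factors, STAT factors, interferon-inducible GTPases of the GBP and IRG families, Schlafen genes and PARP genes were left out of the set. All 40 were among the 54456 gene rows of the table, and all 40 passed the filter on low counts that left 15675 genes for testing. OT-I mice carry a transgenic T cell receptor for an ovalbumin peptide presented on MHC class I, so their T cells are mostly CD8 cells. The cells came from lymph nodes (LN) or visceral adipose tissue (VAT) of mice fed for 8 weeks either a high-fat diet (HFD, 60% of calories from fat) or standard chow (lean), with 4 libraries in each of the 4 groups. All groups share the OT-I background, no other allele is named, and every sample carries the term Neg-OVA, which is not explained. One label calls the cells freshly isolated, while the design text says that they were kept overnight in culture before the sort, so a part of any difference in induced genes that arose in culture cannot be told apart from one present in the tissue. The libraries are labelled as biological replicates without saying which animals they came from, so the p-values measure the spread between these libraries, which may be partly technical.

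Interferon-stimulated genes are switched on when type I, type II or type III interferon binds its receptor on a cell. Signals from type I and type III receptors reach an interferon-stimulated response element near the gene start, bound by a complex that includes IRF9, whereas interferon gamma acts mainly at the gamma-activated site. The products sense foreign RNA or DNA, degrade it, block its translation or hold virus particles at membranes. T cells carry the type I and type II receptors and can make these products.

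The response element is shown first because it is what many of these genes have in common outside their expression. Its core was searched as GAAA, any 2 letters, GAAA on both strands, in windows from 250 bases before to 50 bases after the annotated gene start. RefSeq windows of build GRCm38.p6 were at hand for 30 of the 40 genes, and 15 of the 30 (50%) held the core, compared with 3.99% of the 27025 genes in the promoter table. The stretches below are 80 bases long, run 5′ to 3′ on the gene's own strand, stop before the gene start, and carry each match in capitals, where a match on the other strand reads TTTC, any 2 letters, TTTC. Overlapping matches appear as 1 longer run of capitals. They were chosen to show the pairs of near-identical genes and the genes with 1, 2 and 3 matches.
Ifit1, chr19:34640755-34640834, plus strand: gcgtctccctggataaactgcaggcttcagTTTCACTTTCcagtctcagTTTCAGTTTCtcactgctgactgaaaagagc
Ifit3, chr19:34583343-34583422, plus strand: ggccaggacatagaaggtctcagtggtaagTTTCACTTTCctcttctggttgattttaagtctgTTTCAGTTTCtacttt
Ifit3b, chr19:34607739-34607818, plus strand: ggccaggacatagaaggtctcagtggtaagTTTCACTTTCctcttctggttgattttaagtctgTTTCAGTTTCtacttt
Isg15, chr4:156200847-156200926, minus strand: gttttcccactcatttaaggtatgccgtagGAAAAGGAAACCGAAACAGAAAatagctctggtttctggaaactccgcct
Oas1a, chr5:120907526-120907605, minus strand: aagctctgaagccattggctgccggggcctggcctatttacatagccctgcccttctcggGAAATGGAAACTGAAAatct
Oas1g, chr5:120887614-120887693, minus strand: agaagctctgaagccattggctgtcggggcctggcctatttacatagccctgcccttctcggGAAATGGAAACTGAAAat
Oas3, chr5:120777685-120777764, minus strand: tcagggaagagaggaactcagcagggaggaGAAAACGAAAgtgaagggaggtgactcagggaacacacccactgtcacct
Rsad2, chr12:26456523-26456602, minus strand: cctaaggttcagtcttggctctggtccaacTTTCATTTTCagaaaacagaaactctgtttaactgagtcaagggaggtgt

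The stretch of Ifit3 was identical to that of Ifit3b at all 80 bases, and the stretch of Oas1a matched the window of Oas1g at 79 of 80 bases. Isg15 held 3 overlapping matches, at 78, 72 and 66 bases before its start. Matches in the other genes lay from 188 bases before the start (Ifit3b) to 32 bases after it (Ifih1). Besides the 8 genes shown, Bst2, Eif2ak2, Ifi203, Ifih1, Ifitm3, Trim21 and Trim30a held a match. A gamma-activated site, searched as TTCNNNGAA on both strands, was found in 7 of the 30 genes (23.3%), against 9.55% of the promoter table. A match is a stretch of letters and not a measured binding site.

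**Figure D1:**
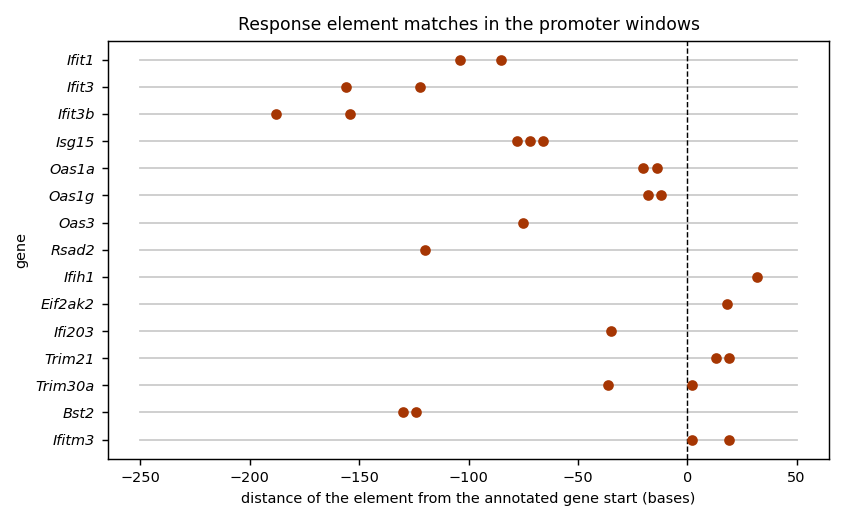
Distance in bases from the annotated gene start (dashed line) to each response element match (points) in the 15 genes that held one; the grey lines are the windows searched. Matches of Isg15, Oas1a, Oas1g, Bst2 and Trim21 come in closely spaced groups. Those of Ifih1, Eif2ak2, Trim21 and Ifitm3 lie after the start, as does a match of Trim30a.

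Levels are CPM, counts relative to a library size scaled by TMM, which corrects for differences in library makeup, and a gene is said to have risen or fallen where edgeR's quasi-likelihood test gave a Benjamini-Hochberg adjusted p under 0.05 over all 15675 genes. Library totals were 40212388 to 65957407 counts, so 3 counts correspond to 0.0437 to 0.0803 CPM. The summed level of the T cell markers was 7592 to 10697 CPM over the 16 libraries. Of the CD8 chains, Cd8a rose in VAT, from 665 to 2077 CPM on HFD and from 718 to 1840 CPM on chow (edgeR adjusted p = 1.68e-05 and 9.1e-05), while Cd8b1 fell, from 2072 to 1228 CPM and from 2058 to 1368 CPM (edgeR adjusted p = 0.00241 and 0.0179). In 3 VAT libraries, which stood apart, many genes were missing. Of the genes whose median over the rest of the group was 10 CPM or more, 13.3% had 3 counts or fewer in lean VAT 1, 11.5% in HFD VAT 3 and 11.4% in HFD VAT 1, against 0.818% to 5.45% in the other 13 libraries. Without these 3 libraries all 40 genes kept their direction between tissues, and the counts without them are given below.

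In both diets the antiviral genes were far more abundant in VAT T cells than in LN T cells. On HFD, 29 of the 40 rose in VAT and none fell, against 2.68% of all genes tested that rose. On standard chow, 25 of 40 rose and none fell, against 2.12% of all genes. The set was chosen with earlier results of these data known, so these shares describe it and do not test it. The median log2 difference was 4.82 on HFD and 4.41 on chow, where the medians of all genes were -0.10 and -0.00. Both medians stay the same when the genes at 0 in a whole LN group (Ube2l6, Ifi44 and, on HFD, Mx2) are set at their lower bounds. All 40 had a log2 difference above 0 in both diets. Of these, Ube2l6, Ifi44, Ifitm3, Mx1, Mx2, Oas2 and Rsad2 had counts in too few LN libraries to pass the filter there. They entered the test through VAT, so their direction in the counts here and below was largely set by the filter. Without the 3 VAT libraries that stood apart, 26 rose on HFD and 24 on chow. DESeq2 called 36 and 33 of the 40 as higher, against 7.75% and 5.93% of the genes to which it gave an adjusted p. Not all of the 40 had one, Isg15 among those without. Limma voom called 35 in each diet, against 3.99% and 5.44% of all genes.

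The separation was also visible library by library. On HFD, the lowest VAT library exceeded the highest LN library for 39 of the 40 genes, against 7.21% of all genes. On chow this held for 36 genes, against 7.24%, and the 4 genes with overlap were Ifit2, Trim21, Sp100 and Ifi44. Together the 40 genes took 2.95% ± 0.116 of all counts in HFD VAT (mean ± SD, n = 4), 2.29% ± 0.0876 in lean VAT, 0.261% ± 0.0335 in HFD LN and 0.283% ± 0.0392 in lean LN. Between 6 and 11 of the 40 were at 0 counts in an LN library, but at most 1 in a VAT library.

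**Figure D2:**
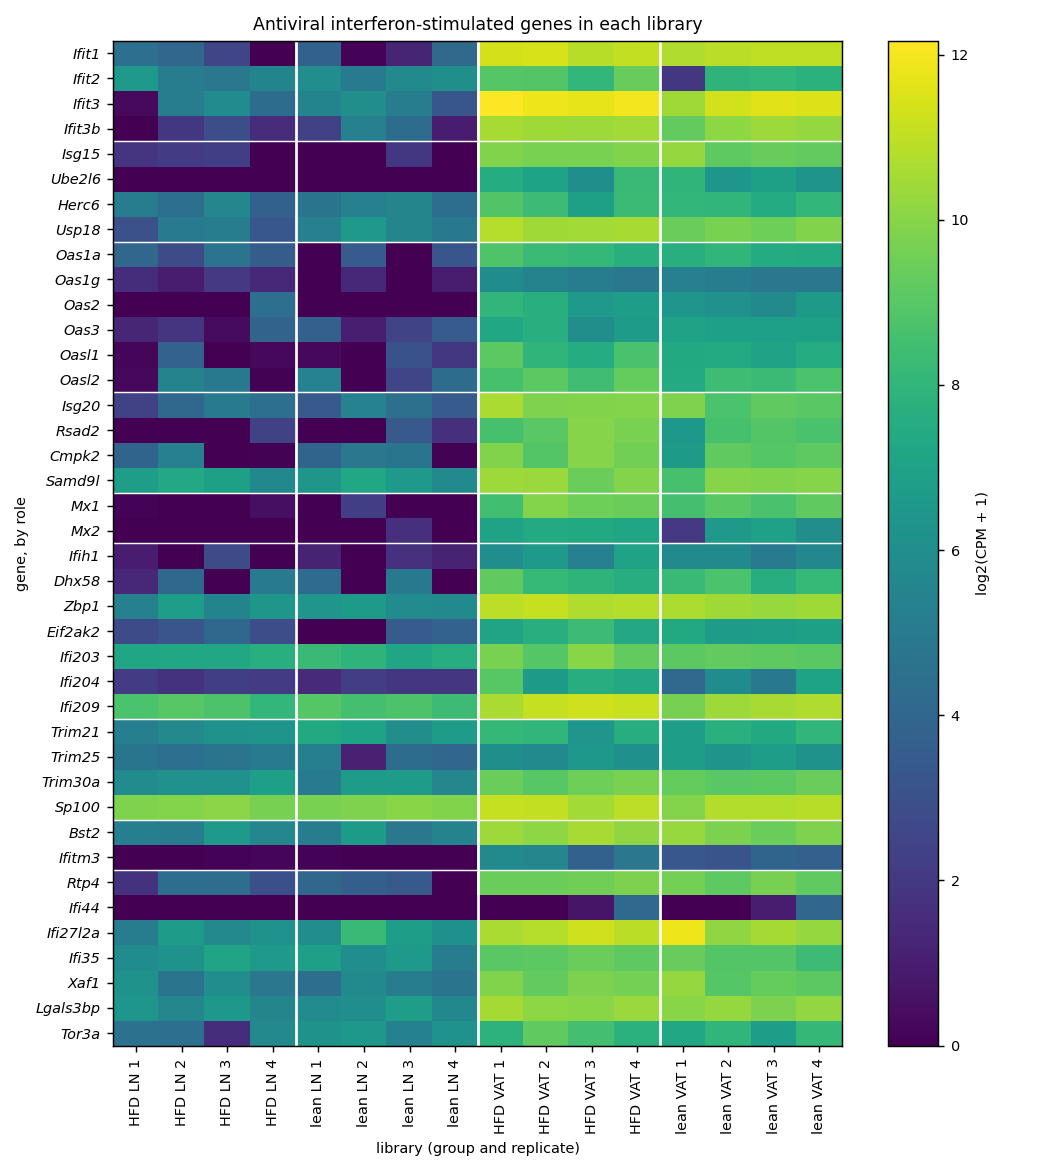
Level of each of the 40 genes (rows, ordered by role) in each of the 16 libraries (columns), as log2(CPM + 1). The VAT columns are brighter than the LN columns for nearly every gene, Ube2l6 is at 0 in all 8 LN libraries, and Ifi44 is low in every library.

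**Figure D3:**
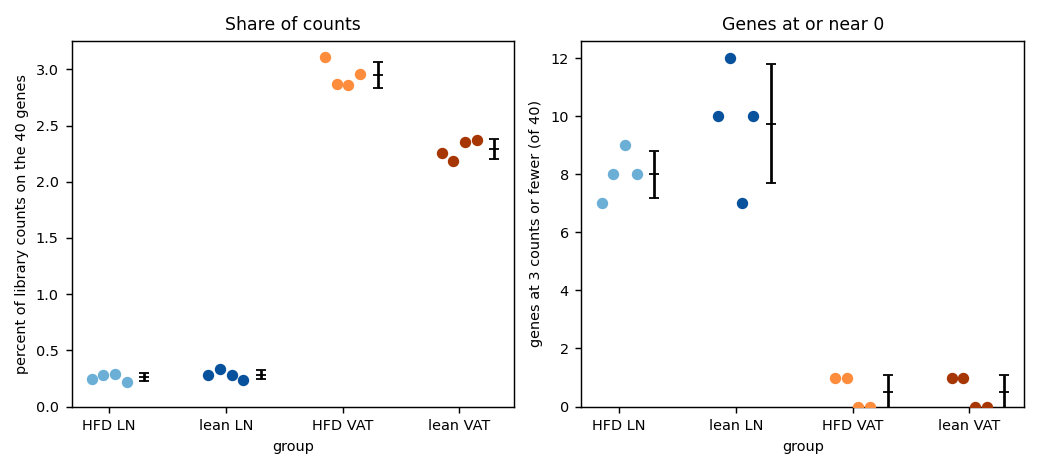
Left, percent of all counts of a library that fell on the 40 genes; right, number of the 40 with 3 counts or fewer. Points are libraries and the black bars are mean ± SD of 4; the shares are 2.18% to 3.11% in VAT and 0.222% to 0.332% in LN.

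Markers of other cell types also differed between the tissues. Summed B cell markers were 1474 to 2538 CPM in LN and 84.2 to 360 CPM in VAT. The 9 macrophage and monocyte markers summed to 0.0171 to 6.13 CPM in LN and 27.4 to 131 CPM in VAT, most of it Cd68, while C1qa was at 0 in all libraries and Adgre1 had at most 1 count in a group. Conventional dendritic cell markers, led by Itgax and Xcr1, summed to 0.193 to 22.3 CPM in LN and 34.9 to 110 CPM in VAT. NK cell markers summed to 0 to 3.55 CPM in LN and 3.32 to 100 CPM in VAT, mostly Klrb1c, with Ncr1 at 0 in 3 of the 4 groups. The plasmacytoid dendritic cell markers were lower in VAT (0 to 79 CPM against 44.8 to 195 CPM), and Siglech had 8 counts in all, in lean VAT. Fibroblast markers summed to 0 to 40.5 CPM in HFD VAT, 0 to 11.9 CPM in lean VAT and 0.0196 to 0.952 CPM in LN. In HFD VAT nearly all of it was Dcn, with Col1a2 at 0 and Col1a1 and Pdgfra averaging 0.00545 and 0.03 CPM. In lean VAT it was mostly Col1a1, with Dcn at 0. The endothelial list was 29 to 98.4 CPM in VAT and 70.3 to 204 CPM in LN, with Cldn5 at 0 throughout. S100a8 and S100a9 of neutrophils were at 0 in all libraries, and Adipoq was at 0 in VAT. The list of CD4 and regulatory T cells summed to 21.6 to 39.8 CPM in LN and 0 to 9.39 CPM in VAT. Its Cd40lg averaged 27.7 and 28.5 CPM in HFD and lean LN, was at 0 in HFD VAT and averaged 3.65 CPM in lean VAT (edgeR adjusted p = 0.00358 on HFD and 0.36 on chow), and Foxp3 had at most 1 count in a group. The part of these cells in the tissue difference was not tested, and more cells with the response cannot be told apart from more RNA per cell in bulk libraries.

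The IFIT proteins bind viral RNA and keep it from being translated. All 4 rose in VAT on HFD and 3 of 4 on chow. Ifit3b had the largest difference on HFD in this family. It stood at 0.0171, 2.96, 6.52 and 1.87 CPM in the 4 HFD LN libraries and at 1524, 1375, 1324 and 1406 CPM in HFD VAT. In the chow groups it stood at 4.18, 38.9, 18.6 and 0.896 CPM in LN and 613, 1099, 1344 and 1209 CPM in VAT. No LN library came near the lowest VAT library in either diet. The fitted difference was 496-fold on HFD (log2 8.95 ± 1.43 approximate SE, edgeR adjusted p = 0.00174) and 68.1-fold on chow (log2 6.09 ± 1.26, edgeR adjusted p = 0.0149). The chow call was lost without lean LN 1 or lean LN 3 (edgeR adjusted p 0.0553 to 0.0583).

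Ifit2 had the smallest difference of the family. It was at 91.7, 35, 27 and 44.3 CPM in HFD LN against 501, 488, 262 and 638 CPM in HFD VAT. In lean LN it was at 62.1, 31.7, 53.3 and 65.3 CPM, and in lean VAT at 2.92, 244, 263 and 214 CPM. Lean VAT 1 alone lay below every LN library, and the other 3 lean VAT libraries lay above all of them. The log2 difference was 3.25 ± 0.86 on HFD (edgeR adjusted p = 0.0472) and 1.77 ± 0.81 on chow (edgeR adjusted p = 0.354). Without lean VAT 1 the chow difference passed the threshold (edgeR adjusted p = 0.00941), whereas the HFD call was lost in 15 of the 16 fits that left out 1 library (edgeR adjusted p 0.0578 to 0.131).

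Ifit1 and Ifit3 rose in both diets. Ifit1 averaged 10.2 ± 9.56 CPM in HFD LN and 2353 ± 428 CPM in HFD VAT, and 7.83 ± 8.42 and 1931 ± 157 CPM in the chow groups. Its HFD call was lost without HFD LN 3 (edgeR adjusted p = 0.0535) and its chow call without lean LN 1 or lean LN 3 (edgeR adjusted p 0.0558 to 0.057). Ifit3 averaged 27.4 ± 24.2 CPM in HFD LN against 3905 ± 512 CPM in HFD VAT, and 37.5 ± 22.6 against 2533 ± 806 CPM on chow. Ifit3 and Ifit3b cannot be separated with certainty, since 61.8% of the 31-base words of the Ifit3 transcript also occur in other genes, all of them in Ifit3b. The ratio of Ifit3b to Ifit3 counts was 0.331 to 0.443 in the VAT libraries and 0.0667 to 0.619 in LN.

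ISG15 is a ubiquitin-like protein that is joined to other proteins by Ube2l6, the conjugating enzyme, and Herc6, the main ligase of mouse, and is removed again by Usp18, which also damps the type I receptor. All 4 genes of this cycle rose in VAT in both diets. Limma voom also called all 4 in both diets. DESeq2 called 3 in each and gave Isg15 no adjusted p, so it made no call on Isg15 either way. Ube2l6 had no count in any of the 8 LN libraries. In VAT it was at 186, 132, 65.7 and 290 CPM on HFD and at 247, 81.7, 121 and 77.5 CPM on chow. With 3 counts allowed in each LN library, it was at least 2809-fold higher in VAT on HFD and at least 2490-fold higher on chow (edgeR adjusted p = 0.000136 and 0.00019). These bounds cover counting error only and not the spread between LN libraries.

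Herc6 had the smallest difference of the 4. It was at 33.5, 20.5, 48.2 and 12.6 CPM in HFD LN and at 464, 322, 118 and 318 CPM in HFD VAT. In the chow groups it was at 24.6, 38.7, 45.5 and 19.9 CPM in LN and at 264, 257, 179 and 268 CPM in VAT. The tissues did not overlap in either diet, with differences of 10.7-fold and 7.52-fold (edgeR adjusted p = 0.000666 and 0.00237). Isg15 itself averaged 886 ± 51.4 CPM in HFD VAT and 757 ± 301 CPM in lean VAT against 2.47 ± 1.72 CPM in HFD LN, and it was at 0 in 3 of the 4 lean LN libraries. Its HFD call was lost without HFD LN 1, HFD LN 2 or HFD LN 3 (edgeR adjusted p 0.0613 to 0.0687). Usp18 averaged 19.9 ± 13.9 and 1542 ± 192 CPM in HFD LN and VAT, and 51 ± 27.8 and 786 ± 129 CPM in lean LN and VAT.

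The OAS enzymes make oligoadenylates that switch on ribonuclease L, and OASL proteins are their relatives. By edgeR 1 of 6 (Oas3) rose on HFD, and 2 of 6 (Oas2 and Oas3) rose on chow. The calls in this family turned on the tool: DESeq2 called 5 in each diet, all but Oas2 on HFD and all but Oasl2 on chow, and limma voom called all 6 in both. No LN library reached the lowest VAT library for any of the 6 in either diet. Oasl1, which had the largest HFD difference of the family, was at 0.119, 13.2, 0 and 0.213 CPM in HFD LN against 555, 249, 183 and 413 CPM in HFD VAT. In lean LN it was at 0.204, 0, 7.35 and 2.95 CPM, and in lean VAT at 166, 173, 129 and 187 CPM. The log2 difference was 6.69 ± 2.02 on HFD and 5.97 ± 1.95 on chow (edgeR adjusted p = 0.0844 and 0.152). Without HFD LN 2, the highest LN library, both passed the threshold (edgeR adjusted p = 0.00742 and 0.0456).

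Oas1g had the smallest HFD difference of the 6. It was at 2.01, 0.903, 3.11 and 1.6 CPM in HFD LN and 58.6, 41.9, 34.7 and 28.5 CPM in HFD VAT. On chow it was at 0, 1.54, 0 and 0.896 CPM in LN and 38.5, 35.1, 27.7 and 27 CPM in VAT. Neither diet gave a call (log2 4.42 ± 1.48 and 5.71 ± 1.57, edgeR adjusted p = 0.118 and 0.0751). Its near-identical neighbour Oas1a gave no call either, at 14.1 ± 7.65 against 309 ± 106 CPM on HFD and 4.71 ± 5.49 against 205 ± 39 CPM on chow, although its HFD difference passed without lean LN 1 (edgeR adjusted p = 0.0464). Of the 31-base words of Oas1a, 68.8% occur in other genes, nearly all in Oas1g, and the ratio of Oas1g to Oas1a counts was 0.106 to 0.188 wherever Oas1a was counted.

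Oas2 showed how much 1 LN library could weigh. It was at 0, 0, 0 and 21 CPM in HFD LN against 258, 205, 91.5 and 110 CPM in HFD VAT, and at 0.0146, 0.018, 0 and 0 CPM in lean LN against 82.7, 69.7, 55.6 and 98.4 CPM in lean VAT. The HFD difference did not pass (log2 4.98 ± 2.00, edgeR adjusted p = 0.193), but did without HFD LN 4 (edgeR adjusted p = 3.07e-05). On chow it rose (edgeR adjusted p = 0.0231), with a ratio of 8657 to the 2 counts of the 4 lean LN libraries together (95% counting interval 2396 to 71491). That call was lost when any 1 of the 4 lean LN libraries was left out (edgeR adjusted p 0.074 to 0.0919). Oas3 averaged 4.45 ± 6.09 and 131 ± 60.5 CPM in HFD LN and VAT, and 7.09 ± 5.16 and 120 ± 6.2 CPM on chow. Its HFD call was lost without HFD LN 1 or HFD LN 2 (edgeR adjusted p = 0.0526 and 0.0574), and its chow call in 14 of 16 fits without 1 library (edgeR adjusted p 0.0517 to 0.143). Oasl2, at 18.3 ± 21.7 against 478 ± 128 CPM on HFD and 16.1 ± 18.3 against 311 ± 104 CPM on chow, passed in neither diet (edgeR adjusted p = 0.166 and 0.275).

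Of the nucleases and nucleotide enzymes, 3 of 4 rose in VAT on HFD and 2 of 4 on chow. Rsad2 encodes viperin, which makes a chain-ending nucleotide. It was at 0, 0, 0 and 4.36 CPM in HFD LN against 394, 526, 1000 and 834 CPM in HFD VAT, and at 0, 0, 9.46 and 2.18 CPM in lean LN against 89.9, 397, 486 and 413 CPM in lean VAT. Every VAT library was above every LN library. The HFD difference passed (log2 9.31 ± 2.48, edgeR adjusted p = 0.0485) and the chow difference did not (log2 6.90 ± 2.24, edgeR adjusted p = 0.147). The HFD call was lost in 13 of 16 fits without 1 library (edgeR adjusted p 0.0501 to 0.111).

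Samd9l, a restrainer of translation, had the smallest difference of this group. It was at 107, 164, 121 and 51.1 CPM in HFD LN, at 1335, 1286, 658 and 965 CPM in HFD VAT, at 85.2, 149, 91.6 and 53.5 CPM in lean LN and at 393, 984, 930 and 998 CPM in lean VAT. The differences were 9.58-fold and 8.71-fold (edgeR adjusted p = 0.000378 and 0.000633). Isg20, an RNA exonuclease, rose 61.9-fold on HFD and 29.7-fold on chow, to 1097 ± 319 CPM in HFD VAT. Cmpk2, a mitochondrial nucleotide kinase encoded beside Rsad2, averaged 13.1 ± 18 and 794 ± 234 CPM in HFD LN and VAT and 16.7 ± 12.6 and 436 ± 228 CPM on chow, and was not called (edgeR adjusted p = 0.0971 and 0.227).

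The Mx proteins are GTPases that trap viral nucleoproteins. Both rose on HFD and Mx1 rose on chow. Mx2 had no count in HFD LN, against 129, 175, 169 and 145 CPM in HFD VAT (edgeR adjusted p = 0.0156). The bound for counting error alone is at least 2576-fold higher, and it does not cover the spread between LN libraries. On chow it was at 0, 0, 2.24 and 0 CPM in LN and at 3.12, 93, 124 and 63.2 CPM in VAT. The lowest lean VAT library, lean VAT 1, was close to the highest lean LN library, lean LN 3. The chow difference did not pass (log2 6.98 ± 2.16, edgeR adjusted p = 0.147), but did without lean LN 3 (edgeR adjusted p = 0.00487).

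Mx1 was at 0.102, 0, 0 and 0.425 CPM in HFD LN and 361, 953, 709 and 699 CPM in HFD VAT. The corresponding chow values were 0, 3.86, 0 and 0 CPM in LN and 383, 529, 401 and 589 CPM in VAT. Both sets were far apart (log2 12.32 ± 2.25 and 8.94 ± 1.96, edgeR adjusted p = 0.00488 and 0.0211). The chow call was lost without lean LN 1, lean LN 3 or lean LN 4 (edgeR adjusted p 0.0513 to 0.0556).

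Among the 7 sensors of RNA and DNA, 4 rose in both diets: Zbp1, Ifi203, Ifi204 and Ifi209. Ifi204, a DNA sensor of the AIM2-like family, had the largest HFD difference. It was at 3.29, 2.41, 3.83 and 3.34 CPM in HFD LN against 512, 97, 192 and 164 CPM in HFD VAT, and at 1.75, 3.57, 2.86 and 2.86 CPM in lean LN against 16.7, 58.7, 28.8 and 133 CPM in lean VAT. The LN values were nearly level while the VAT values spread widely within both diets. The differences were 74.9-fold and 21.5-fold (edgeR adjusted p = 0.00017 and 0.00164).

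Ifi203, of the same family, had the smallest difference among the sensors, from 148, 151, 154 and 194 CPM in HFD LN to 843, 502, 1040 and 602 CPM in HFD VAT. On chow it went from 302, 243, 141 and 189 CPM in LN to 556, 610, 571 and 525 CPM in VAT. It was thus well expressed in LN and still did not overlap between tissues (4.62-fold and 2.59-fold, edgeR adjusted p = 0.000123 and 0.00521). Ifi209 rose 5.15-fold and 3.29-fold. These genes share sequence with relatives: 47.2% of the 31-base words of Ifi209, 34.6% of Ifi204 and 21.9% of Ifi203 occur in other genes, so their separate counts are uncertain.

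Zbp1, which binds Z-form nucleic acid and can start cell death, had the lowest adjusted p of the whole set on HFD. It was at 39.8, 111, 43.5 and 86.7 CPM in HFD LN against 1982, 2170, 1661 and 1792 CPM in HFD VAT, and at 79.4, 97.2, 56.7 and 53.4 CPM in lean LN against 1632, 1382, 1269 and 1362 CPM in lean VAT. The 27-fold and 19.7-fold differences (log2 4.76 ± 0.34 and 4.30 ± 0.33, edgeR adjusted p = 2.71e-06 and 7.54e-06) far exceeded the spread between libraries.

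The 3 other sensors, which detect double-stranded RNA, passed in neither diet by edgeR, although no LN library reached the lowest VAT library. Ifih1 was called by DESeq2 and limma voom in both diets, Eif2ak2 by DESeq2 on HFD and by both tools on chow, and Dhx58 by DESeq2 on HFD and by limma voom on chow. Each had at least 1 LN library at 0 and others well above it. Ifih1 (MDA5) averaged 1.7 ± 2.78 and 79.3 ± 38.2 CPM in HFD LN and VAT and 1.2 ± 0.949 and 47.5 ± 11.3 CPM on chow (edgeR adjusted p = 0.134 and 0.206). Dhx58 (LGP2) averaged 12.1 ± 14.5 and 326 ± 174 CPM on HFD and 11.8 ± 14.3 and 299 ± 97.4 CPM on chow (edgeR adjusted p = 0.203 and 0.287). Eif2ak2 (PKR), the kinase that stops translation, averaged 9.18 ± 4.77 and 205 ± 83.2 CPM on HFD and 5.94 ± 6.93 and 124 ± 29 CPM on chow (edgeR adjusted p = 0.132 and 0.191).

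The TRIM ligases and the nuclear body protein Sp100 had the smallest differences of all roles, with a median log2 difference of 1.58 on HFD and 1.56 on chow. On HFD 3 of 4 rose (Trim21, Trim30a and Sp100), and on chow 2 of 4 (Trim30a and Sp100). Trim30a, a ligase that damps innate signalling in mouse, was at 58.3, 70.8, 70.6 and 115 CPM in HFD LN against 689, 520, 711 and 834 CPM in HFD VAT, and at 30.4, 105, 105 and 48.5 CPM in lean LN against 629, 527, 552 and 663 CPM in lean VAT. Its 8.75-fold and 8.2-fold differences were called in every alternative run.

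Sp100 was abundant in both tissues. It was at 894, 963, 1054 and 805 CPM in HFD LN and 2217, 2126, 1439 and 1959 CPM in HFD VAT, a 2.08-fold rise (edgeR adjusted p = 0.00358). On chow it was at 852, 914, 1032 and 932 CPM in LN and 977, 1747, 1714 and 1846 CPM in VAT, where lean VAT 1 fell within the range of LN. The 1.68-fold chow difference passed (edgeR adjusted p = 0.0417), but not in 14 of 16 fits without 1 library (edgeR adjusted p 0.0527 to 0.148). Trim21, which binds antibody in the cytosol, averaged 61 ± 20 and 201 ± 85.5 CPM on HFD and 117 ± 43.3 and 187 ± 63.6 CPM on chow (edgeR adjusted p = 0.0289 and 0.567), and its HFD call was lost in 7 of 16 such fits (edgeR adjusted p 0.0513 to 0.0885). Trim25, the ligase that acts on RIG-I, averaged 25.3 ± 3.99 and 69 ± 13.5 CPM on HFD and 17.9 ± 14.8 and 92.5 ± 18.4 CPM on chow (edgeR adjusted p = 0.245 and 0.0834). Without lean LN 2, where Trim25 was at 1.15 CPM, it passed in both (edgeR adjusted p = 0.0368 and 0.0172), and without lean LN 1 on chow (edgeR adjusted p = 0.0483).

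Both membrane restriction factors rose in both diets. Bst2 (tetherin), which holds budding virus at the cell surface, was at 36.8, 33.3, 94 and 48.6 CPM in HFD LN against 1336, 1085, 1514 and 1116 CPM in HFD VAT, and at 34.4, 96.8, 28.1 and 43.1 CPM in lean LN against 1248, 866, 697 and 898 CPM in lean VAT. The tissues were 23.7-fold and 18.3-fold apart (edgeR adjusted p = 3.45e-05 and 8.24e-05). Ifitm3, which blocks entry of enveloped virus, was at 0, 0, 0.0881 and 0.128 CPM in HFD LN and 53.4, 48, 12.7 and 27.4 CPM in HFD VAT, and at 0.0874, 0, 0 and 0 CPM in lean LN and 8.93, 7.96, 14 and 12.3 CPM in lean VAT. It was thus almost undetected in LN. The differences passed (log2 9.31 ± 1.95 and 8.74 ± 1.91, edgeR adjusted p = 0.013 and 0.0202), and the chow call was lost without lean LN 2, 3 or 4 (edgeR adjusted p 0.0583 to 0.0687).

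Of the other 7 induced genes, 6 rose on HFD and 5 on chow. Ifi44 was the exception in both diets. It had no count in LN, and was at 0.0218, 0, 0.616 and 16.9 CPM in HFD VAT and 0, 0, 0.894 and 15.4 CPM in lean VAT. A single library of each VAT group held most of its counts, and it was not called (edgeR adjusted p = 0.221 and 0.3). Ifi35 had the smallest HFD difference of the 7, from 59.6, 76, 137 and 95.1 CPM in LN to 532, 552, 679 and 564 CPM in VAT. On chow it went from 116, 61.9, 94.9 and 34.5 CPM to 650, 483, 484 and 326 CPM, and the difference was 6.33-fold in both diets (edgeR adjusted p = 0.000452 and 0.000577).

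Lgals3bp, a secreted glycoprotein, was among the most even, rising 18.6-fold on HFD and 15.4-fold on chow (edgeR adjusted p = 3.08e-06 and 7.54e-06). Xaf1, a promoter of apoptosis, rose 17-fold and 21.1-fold. Ifi27l2a rose 29.6-fold and 13.8-fold, and Rtp4, a chaperone of receptors, 61.5-fold and 75.1-fold. Tor3a, an ATPase of the endoplasmic reticulum, rose on HFD, from 24.5 ± 20.8 to 350 ± 168 CPM (edgeR adjusted p = 0.00657). On chow it averaged 69.2 ± 20.5 CPM in LN and 196 ± 78.8 CPM in VAT and was not called (edgeR adjusted p = 0.325).

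**Figure D4:**
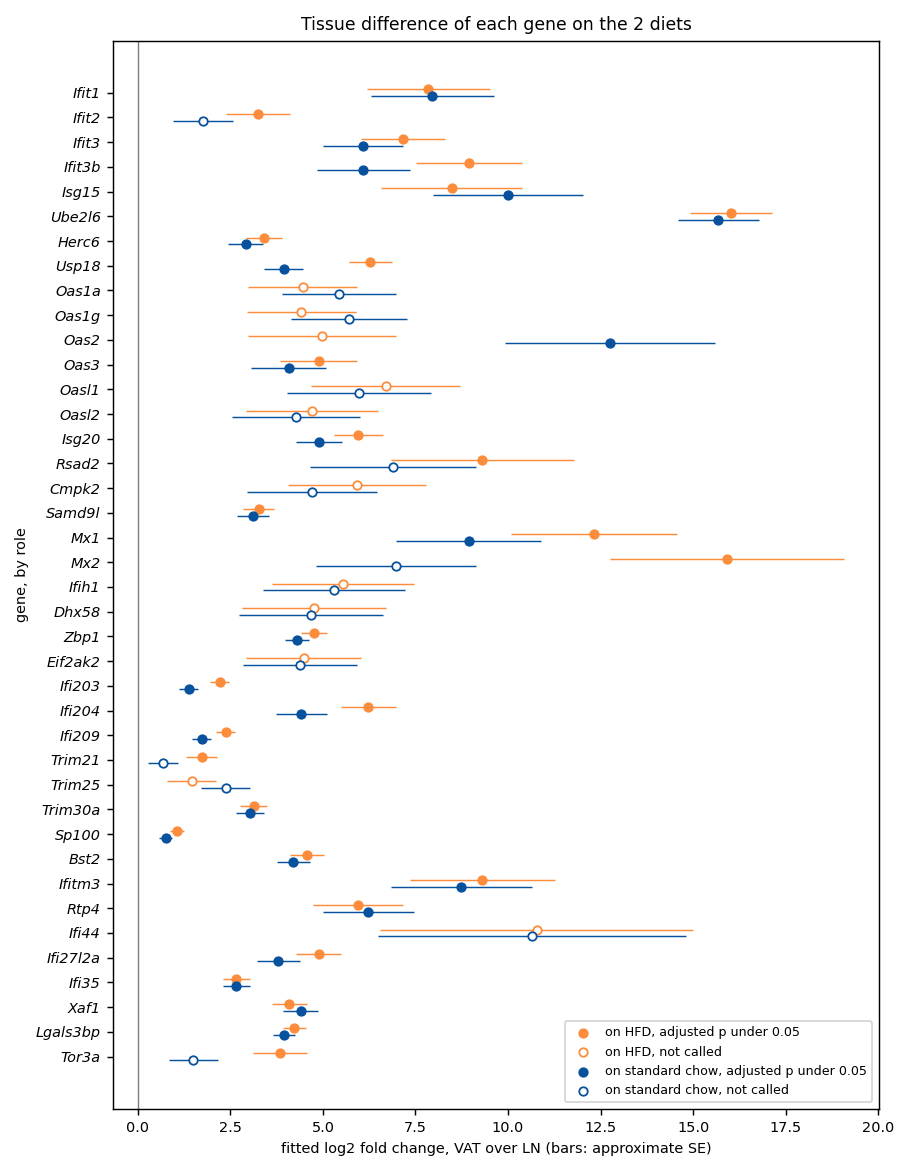
Fitted log2 fold change of VAT over LN for each gene on HFD (orange) and standard chow (blue), with approximate SE; filled points passed the adjusted p threshold of 0.05 and open points did not. All points lie above 0, and the values of Ube2l6, Ifi44 and, on HFD, Mx2 are set by LN groups at 0 counts and are no measure of size.

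Comparing the 2 diets, 24 genes rose in both. On HFD alone 5 more rose (Ifit2, Rsad2, Mx2, Trim21 and Tor3a), on chow alone Oas2 rose, and 10 passed in neither. The log2 difference was larger on HFD for 31 of the 40, and for 28 of 37 without Ube2l6, Ifi44 and Mx2, while 45.2% of all genes had a larger difference on HFD. Whether the tissue difference itself depends on diet was tested as the difference between the diet effects, and edgeR called none of the 40 (0.0191% of all genes were called). At an unadjusted p under 0.05 there were 5 (Usp18, Oas2, Mx2, Ifi203 and Tor3a), against 6.16% of all genes, and the lowest edgeR adjusted p was 0.428 for Usp18. DESeq2 called 2 (Usp18 and Mx2), against 4.15% of all genes, and limma voom none, against 0.0383%. For the 6 genes called in a single diet the edgeR adjusted p of this difference was 0.643 (Mx2), 0.648 (Oas2), 0.719 (Tor3a), 0.89 (Trim21) and 1 (Ifit2 and Rsad2). Across the 40 genes the 2 tissue differences, which share no library, had a Pearson r of 0.79 and a Spearman rho of 0.88. Across all 15675 genes the values were 0.477 and 0.458. The 40 here include Ube2l6, Ifi44 and Mx2, whose large differences against LN groups at 0 counts are no measure of size. The correlations are descriptions across genes, which are not independent replicates.

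Diet itself gave no call within VAT. None of the 40 passed in HFD VAT against lean VAT in edgeR, where 0.0574% of all genes did in either direction. Nevertheless 39 of the 40 had a log2 difference above 0, Trim25 being the exception, with a median of 0.42, while 44.1% of all genes were above 0 and their median was -0.10. The count was 37 with a median of 0.49 without lean VAT 1, 37 with 0.51 without the 3 libraries that stood apart, 39 with 0.51 under RLE scaling and 38 with 0.41 under upper quartile scaling. The genes share the same 8 libraries, so their directions are not independent of each other. At an unadjusted p under 0.05 there were 2, Ifi204 and Ifi209, against 8.08% of all genes. DESeq2 called 1 (Ifi204), against 5.03% of all genes, and limma voom 4 (Ifit3, Isg20, Usp18 and Zbp1), against 0.204%.

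For 4 genes every HFD VAT library exceeded every lean VAT library, against 3.22% of all genes without overlap in either direction. They were Ifit3, Usp18, Mx2 and Zbp1, whose library values are given above except for Ifit3 and Usp18. Usp18 was at 1819, 1396, 1432 and 1523 CPM in HFD VAT and 659, 840, 703 and 940 CPM in lean VAT, the widest gap of the 4. Its log2 difference was 0.97 ± 0.46 (edgeR adjusted p = 0.629). Ifit3 was at 4602, 3672, 3410 and 3936 CPM in HFD VAT and 1384, 2578, 3177 and 2992 CPM in lean VAT (log2 0.62 ± 0.88, edgeR adjusted p = 1). Ifi204 had the largest log2 difference, 2.02 ± 0.62 (edgeR adjusted p = 0.411), but its lowest HFD VAT library at 97 CPM lay below the highest lean VAT library at 133 CPM. The share of counts on the 40 genes was 2.86% to 3.11% in HFD VAT and 2.18% to 2.37% in lean VAT, without overlap.

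**Figure D5:**
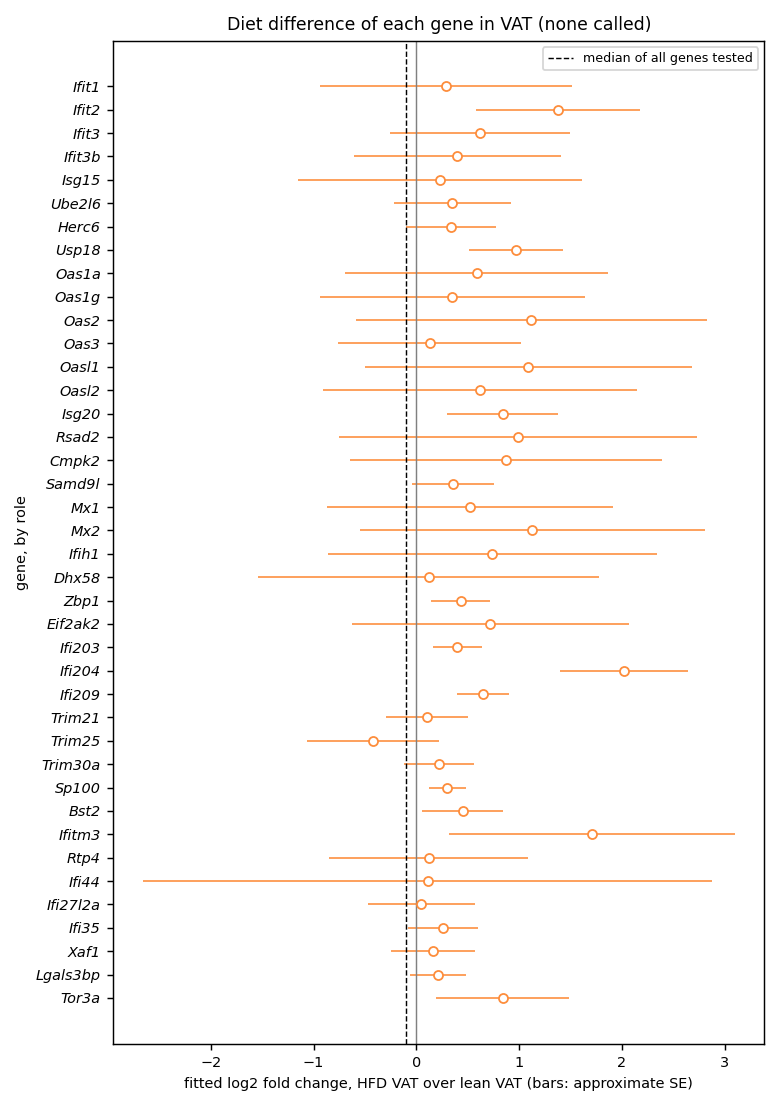
Fitted log2 fold change of HFD VAT over lean VAT for each gene, with approximate SE; the dashed line is the median of all genes tested (-0.10). Points lie to the right of 0 except for Trim25, and none passed the threshold.

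Within LN the diets were not separated. None of the 40 was called by edgeR, where 0% of all genes were. Log2 differences were above 0 for 20 and below 0 for 18, and no gene was without overlap, against 2.26% of all genes. At an unadjusted p under 0.05 there were 6 (Ifit3b, Usp18, Oas2, Mx2, Trim21 and Tor3a), against 3.37% of all genes. DESeq2 called 2 (Oas2 and Mx2), against 1.54% of all genes, and limma voom none, against 0.0191%. All but 2 of the LN counts of Oas2 came from HFD LN 4, and all LN counts of Mx2 came from lean LN 3. The median coefficient of variation was 58.6% in HFD LN (37 genes with counts) and 71.8% in lean LN (38 genes), against 29.6% and 26.8% over all 40 in HFD and lean VAT.

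The rest of the interferon pathway was counted in 77 further genes, of which 51 passed the filter. In VAT against LN, 19 rose and 1 fell on HFD, and 14 rose and 1 fell on chow. Of all 15675 genes, 420 (2.68%) rose and 294 fell on HFD, and 332 (2.12%) rose and 144 fell on chow. These lists were also chosen with earlier results of these data known, so the shares are a description. Of the 21 ligand genes, only Ifng had enough counts to be tested, at 2.22 ± 2.83 and 205 ± 68.7 CPM in HFD LN and VAT and 1.72 ± 3.43 and 257 ± 11.5 CPM in lean LN and VAT. It was not called (edgeR adjusted p = 0.14 and 0.155). Ifnb1 and all alpha interferon genes on the list were at 0 counts in all 16 libraries, below the limit of 3 counts per library. Trex1, another gene of the pathway, was also at 0 in all 16 libraries. Whether such rows reflect the level of the message or the way the counts were made was not tested.

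Among the 11 receptor and signalling genes tested, Stat2, which joins Irf9 in the complex at the response element, rose 12.6-fold on HFD and 7.05-fold on chow. Irf9 rose 3.74-fold and 3.92-fold, and the interferon gamma receptor chain Ifngr1 rose 3.96-fold and 4.35-fold. The other gamma receptor chain, Ifngr2, was lower in VAT, at 87.6 ± 26.7 and 4.14 ± 7.7 CPM in HFD LN and VAT. On chow it averaged 118 ± 23.7 and 14.6 ± 19.3 CPM, and it was called in neither diet (edgeR adjusted p = 0.229 and 0.567). Jak1, the kinase shared by these receptors, fell in both diets, from 2990 ± 437 to 1522 ± 273 CPM on HFD and 2894 ± 375 to 1186 ± 290 CPM on chow. The type I receptor chains did not pass, with Ifnar1 at 212 ± 48.9 and 358 ± 117 CPM and Ifnar2 at 134 ± 30.9 and 160 ± 94 CPM in HFD LN and VAT. Of the 5 transcription factors, Irf7, the amplifier of the type I response, rose 48.2-fold on HFD and 29-fold on chow, and Irf1 rose 2.58-fold on HFD.

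Of the 12 sensors and adaptors tested outside the set, 1 rose, Ddx58 (RIG-I), by 5.65-fold on HFD and 5.75-fold on chow. Among the 9 brakes tested, Rnf125 rose in both diets (3.21-fold and 2.11-fold) and Adar on HFD (4.04-fold), while Socs1 was at 161 ± 36.2 and 211 ± 25.1 CPM in HFD LN and VAT and was not called. Of the 13 tested genes that respond strongly to interferon gamma, 10 rose on HFD and 7 on chow. Cxcl10, a chemokine, had no count in HFD LN and averaged 2225 ± 230 CPM in HFD VAT, and 2.7 ± 5.29 and 1097 ± 233 CPM in lean LN and VAT. B2m, the light chain of MHC class I, rose 2.78-fold and 2.63-fold. Between diets edgeR called none of the 51 in VAT, in LN or in the difference. At an unadjusted p under 0.05 there were 3, 2 and 5, against 8.08%, 3.37% and 6.16% of all genes. In VAT DESeq2 called 1, against 5.03% of all genes, and limma voom called 2, against 0.204%.

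The presence of the response element in the promoter window did not divide the genes clearly. Among the 15 with the element, 11 rose on HFD and 9 on chow, with median log2 differences of 4.88 and 5.44. Among the 15 without it, 10 rose on HFD and 9 on chow, with medians of 4.09 and 3.94. Ube2l6, at 0 in LN, has no match in its window, while Isg15 has 3, and Trim21, with 2 matches after the start, was among the genes with the smallest differences. The comparison was made over genes as a description and was not tested.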

How the data were processed

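RNA-seq counts of 16 libraries were analysed. The authors deposited raw counts per gene as whole numbers, without normalisation. The tools named in the submitters' processing notes are kallisto 0.42.4 and DESeq2, and the build is GRCh38, a human build, although the gene names are those of mouse. How whole counts were made is not given in the sources used here, and the labels name more than 1 library kit and sequencer and describe a culture of another cell type. No row was left out.

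Genes passing edgeR's filterByExpr were fitted in 1 model over the 4 groups (edgeR 4.0.16, R 4.3.3, TMM, robust quasi-likelihood F-test, Benjamini-Hochberg adjustment over 15675 genes, common dispersion 1.52). Standard errors are approximate, the log2 difference divided by the root of F. The pipeline was tested on counts simulated with the dispersions of these data and with genes raised in HFD VAT. In VAT against LN on HFD it called 9.23% of genes raised 4-fold, 18.8% of those raised 8-fold and 49.2% of those raised 32-fold. It called 0 of 15002 unchanged genes. A gene that was not called may thus still differ. The members and gene lists were chosen with earlier results of these data known. Library values are given for the genes with the largest and smallest HFD tissue difference in each role, and others by group; Zbp1, Oas2, Usp18 and Ifit3 were added after their values were seen. Of the other pathway genes, those called in any comparison and up to 4 more per list could be named. One such gene is not reported here. Bounds use 3 counts in each library at 0 and, like the 95% exact interval, cover counting error only, since PCR reads are not independent molecules. Shared words come from GENCODE M21 transcripts. Alternatives were RLE and upper quartile scaling, no filter, at least 5 CPM in 4 libraries, DESeq2 1.42.0, limma 3.58.1 voom with quality weights, a replicate block, fits of the compared groups alone, leaving out each library, and leaving out the 3 VAT libraries that stood apart.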

Additional observations from a re-analysis of the deposited data

Results flagged for a closer look

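Of 155 gene and group combinations with counts, 18 had 1 library set apart from the other 3 by more than Dixon's 95% critical value for 4 libraries. Chance flags about 1 in 20 such groups where values are normally distributed. A group with counts in 1 library and 0 in the other 3 is always flagged. This was so for Isg15, Mx1, Mx2 and Ifitm3 in lean LN and for Oas2 and Rsad2 in HFD LN. The number of flags can thus not be set against that rate. Lean VAT 1, a library in which many genes were missing, held 5 of the 18. Isg15 was high there at 1207 CPM and Ifi27l2a at 3682 CPM. Cmpk2 was low there at 96.7 CPM, Samd9l at 393 CPM and Sp100 at 977 CPM.

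In the other VAT libraries, Herc6 was low in lean VAT 3 at 179 CPM and Isg20 was high in HFD VAT 1 at 1574 CPM. Ifi44 was high in HFD VAT 4 at 16.9 CPM and in lean VAT 4 at 15.4 CPM.

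In HFD LN, the 3 genes set apart in HFD LN 4 were Oas2 at 21 CPM, Rsad2 at 4.36 CPM and Ifi203 at 194 CPM. Oasl1 was high in HFD LN 2 at 13.2 CPM and Ifih1 in HFD LN 3 at 5.81 CPM. In lean LN, Isg15 was at 2.98 CPM and Mx2 at 2.24 CPM in lean LN 3. Mx1 was at 3.86 CPM in lean LN 2 and Ifitm3 at 0.0874 CPM in lean LN 1, each against values of 0 in the rest of the group.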

How the results depend on the processing

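Over 25 alternatives the number of the 40 genes that rose in VAT was 24 to 36 on HFD and 19 to 35 on chow, and the direction of all 40 was kept under RLE and upper quartile scaling, DESeq2 and limma voom. Leaving out 1 library gave 24 to 29 on HFD and 19 to 25 on chow. The same 20 of 29 HFD calls and 15 of 25 chow calls were kept in every alternative. Diet calls in VAT were 1 with DESeq2 and 4 with limma voom, those in LN 2 with DESeq2 and those of the difference 2 with DESeq2, all from 0. The other pathway genes had 1 diet call in VAT with DESeq2 and 2 with limma voom. The cause was not tested. Limma voom lost Ifit3 in both diets (adjusted p = 0.336 and 0.267).

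The replicate numbers do not pair libraries by the labels, and same-numbered libraries did not deviate together (correlations -0.0739 to 0.0409 in 24 pairs, and -0.057 to 0.0952 in 72 pairs with different numbers). With the replicate block 27 genes rose on HFD and 20 on chow. Genes at 0 in LN give lower bounds only, and Ifi44 was below the limit of 3 counts in 4 of the 8 VAT libraries too.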
